A study of Mus musculus with 3 samples.

Results

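The genes described here encode regulators of chromatin and DNA methylation in R1 cells, a long-established line of mouse embryonic stem (ES) cells. They are 36 named genes of the Polycomb complexes, the DNA methylation machinery, the enzymes that add or remove histone marks, and the nucleosome remodellers, together with Ctcf and Rest. All probe sets that the array annotation pairs with these genes were taken, which gave 96 probe sets of the 45101 on the array, and the 36 genes are a small share of the 18193 that a probe set represents alone. No member had a probe set that is shared with another gene. The list goes by gene name with no threshold on a measured value, but it was drawn up with earlier results of these data known.

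The cells were undifferentiated, and each treatment lasted 4 h. One group had BMP4 (20 ng/ml), another noggin (100 ng/ml), and the control group had neither. The labels give no time for the untreated cells, and they do not say whether feeder cells or serum were present. Each condition was measured on 1 Affymetrix array, so there is no replicate error, no test was made, and every difference below compares 3 arrays, whose number limits the precision, and not the conditions beyond them. Values are log2 RMA expression values, so that a difference of 1 is a 2-fold difference.

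BMP4 is a secreted signal that acts through receptor-activated SMAD proteins, and noggin is a secreted protein that captures BMPs outside the cell. Polycomb repressive complex 2 (PRC2) methylates histone H3 at lysine 27, and PRC1 ubiquitinates histone H2A, and together they keep developmental genes silent in ES cells. Dnmt1 with its partner Uhrf1 copies DNA methylation after replication, and Tet enzymes oxidise it. NuRD and SWI/SNF are ATP-dependent remodelling complexes that ES cells need for orderly differentiation.

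The BMP4 treatment itself was visible on the arrays. Id1 measured 8.78 in untreated cells, 11.54 with BMP4 and 8.59 with noggin, and all 3 Id genes, classical SMAD targets, were far higher with BMP4. With noggin Id1, Id2 and Id3 were lower by small amounts, at −0.19, −0.49 and −0.26, and none of them by 1.5-fold. All 8 ES cell markers were above the floor on every array, from 9.25 to 12.83 with BMP4, and the mean of the list was 11.17 untreated, 11.18 with BMP4 and 11.15 with noggin. Of the 8 fibroblast markers 5 were above the floor on at least 1 array, with list means of 3.76, 3.58 and 3.74, and none exceeded 5.09. The endoderm list (3 of 5 above the floor) had means of 3.71, 4.03 and 3.73, and the trophoblast list (2 of the 4 with a probe set) of 3.89, 3.85 and 3.77. Of the endoderm markers, Sox7 measured 3.74 untreated, 4.73 with BMP4 and 3.84 with noggin, and Gata6 4.67, 5.20 and 4.82. With BMP4 they were thus higher by 0.99 and 0.52, more than any member representative. Of the fibroblast markers, S100a4 measured 4.93 untreated, 4.37 with BMP4 and 4.62 with noggin. Its difference with BMP4 was −0.55, beside −0.40 for Col3a1, −0.32 for Postn and −0.17 for Col1a2. Thy1 differed by 0.02, and Col1a1, Lum and Dcn were equal. Col1a1 and Col3a1 lay below the floor on all 3 arrays, and Postn passed it only with noggin. The part of these markers in the differences below was not tested. Gata4 and Afp were below the floor on all 3 arrays. Lum, a fibroblast marker, and Elf5, a trophoblast marker, were below the floor on all 3 arrays. In RNA from a whole culture, fewer cells of a type and less RNA per cell cannot be told apart. The 24 probe sets for poly-A spikes, RNAs added ahead of the labelling step, read lower with BMP4 than untreated in every case, by a median of −0.63, and 23 of them read lower with noggin, by a median of −0.18; their part in the differences below was not tested.

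All 36 members exceeded a floor of 3.44, which is the median over all probe sets and arrays, as did 86 of their 96 probe sets. A gene is represented by its probe set with the highest mean, and the other probe sets are given beside it. On the untreated array the representatives ran from 5.13 to 11.83. Levels of different probe sets are not comparable, because probes differ in how strongly they bind, so no gene is ranked against another. In the median polish of RMA many probe sets receive exactly the same value on several arrays: 16 of the 86 member probe sets (18.6%) were identical on all 3 arrays to 6 decimals, against 24.3% of all 20122 gene-paired probe sets above the floor. A difference of 0.00 can therefore hide a small true difference.

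**Figure D1:**
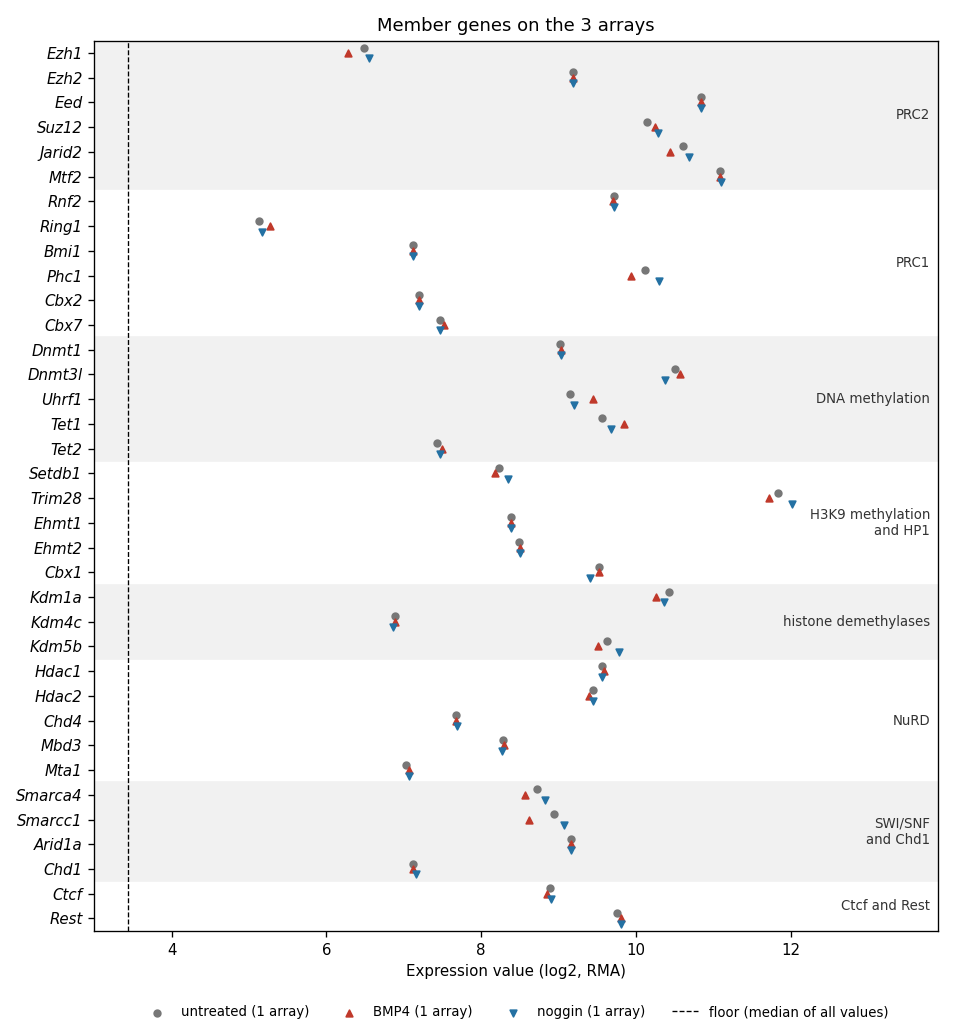
Expression value (log2, RMA) of the representative probe set of each of the 36 genes on the untreated, BMP4 and noggin arrays, 1 array each, grouped by complex; the dashed line is the floor of 3.44. All genes lie above the floor and the 3 symbols of a gene lie close together, with the widest gap for Smarcc1, at 8.61 with BMP4 and 9.07 with noggin.

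Compared with the untreated array, no member differed by 1.5-fold with BMP4 or with noggin, and none differed by 1.5-fold between BMP4 and noggin. Over all 11594 genes above the floor, 0.276% passed 1.5-fold for BMP4 against untreated, 0.0776% for noggin against untreated and 0.518% for BMP4 against noggin, so that a count of 0 among 36 is close to the background. With BMP4 13 members were higher, 12 lower and 11 exactly equal, and the median difference was 0.00, as it was over all genes, of which 24.8% were higher, 35.6% lower and 39.6% equal. The range ran from −0.33 for Smarcc1 to 0.30 for Uhrf1.

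With noggin 22 members were higher (61.1%), 6 lower and 8 equal, with a median of 0.01. Of all genes above the floor 26.8% were higher, 36.1% lower and 37% equal, and among the 6903 genes above the 75th percentile of all values 29.6% were higher, against 21 of the 35 members there (60%). The differences were small, none beyond 0.19. The largest were those of Trim28 (0.19), Phc1 (0.18) and Kdm5b (0.16), and the standard deviation between probe sets of a gene was 0.11 within members for this comparison. How many of all genes differed by more than that was not counted. The size of the excess depended on which probe set stands for a gene: with every gene taken as the average of its probe sets, 17 members were higher (47.2%, against 26.6% of all genes on that basis) and 16 lower (44.4%, against 51.6%).

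The sizes of the differences were then set beside a lower limit of 1.2-fold (0.26). With BMP4 2 members were higher by that much, Uhrf1 and Tet1 (5.56%, against 1.59% of all genes), and 1 was lower, Smarcc1 (2.78%, against 2.25%). With the mean over probe sets Uhrf1 (0.41) and Chd4 (0.27) were the 2 members above the limit (5.56%, against 1.34% of all genes) and none was below it, against 1.13%. On that basis Tet1 differed by 0.13 and Smarcc1 by 0.09. No member passed 1.2-fold with noggin, where 0.897% of all genes were higher and 1.9% lower. BMP4 minus noggin was below the limit for 6 members, Smarcc1, Phc1, Trim28, Ezh1, Kdm5b and Smarca4 (16.7%, against 3.26% of all genes), and above it for none, against 3.37%. In that comparison the mean over probe sets left only Phc1 below the limit (2.78%, against 1.47%), and 4 members were above it, Uhrf1, Chd4, Ctcf and Eed (11.1%, against 3.48%). For Eed that mean takes in a probe set below the floor.

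Counted by probe set, most of the differences of this size with BMP4 lay above 0. Of the 86 member probe sets 12 were at least 1.2-fold higher with BMP4 than untreated (14%, against 3.39% of all probe sets) and 1 was lower (1.16%, against 2.1%). The 12 higher ones belonged to Suz12, Mtf2, Rnf2, Uhrf1, Tet1, Chd4, Smarcc1, Arid1a and Ctcf, and for all of these but Uhrf1 and Tet1 they were not the probe set that represents the gene. A single one passed 1.5-fold, that of Smarcc1 (1.16%, against 0.517% of all probe sets). With noggin 1 member probe set was higher by 1.2-fold (1.16%, against 1.08%), of Arid1a, and 4 were lower (4.65%, against 2.8%), of Suz12, Rnf2 and Hdac2. For BMP4 minus noggin 10 were higher (11.6%, against 6.1%) and 8 lower (9.3%, against 2.9%). Between those arrays 4 probe sets passed 1.5-fold, 1 each of Suz12, Uhrf1, Ctcf and Chd4, all higher with BMP4 (4.65%, against 0.989%). Probe sets of one gene share the RNA and often overlap in sequence, so these are not independent counts.

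**Figure D2:**
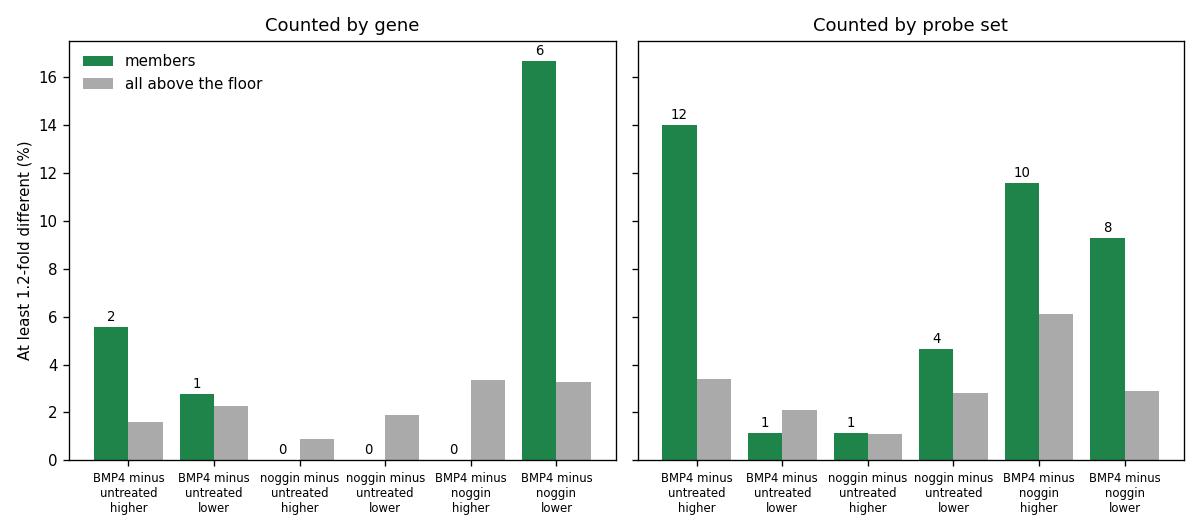
Share of members (green) and of all genes or probe sets above the floor (grey) that differed at least 1.2-fold, in percent, by comparison and direction, counted by gene (left) and by probe set (right); numbers over the green bars are counts of members. By gene the tallest green bar is BMP4 lower than noggin (16.7%, 6 genes), and by probe set it is BMP4 higher than untreated (14%, 12 probe sets).

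**Figure D3:**
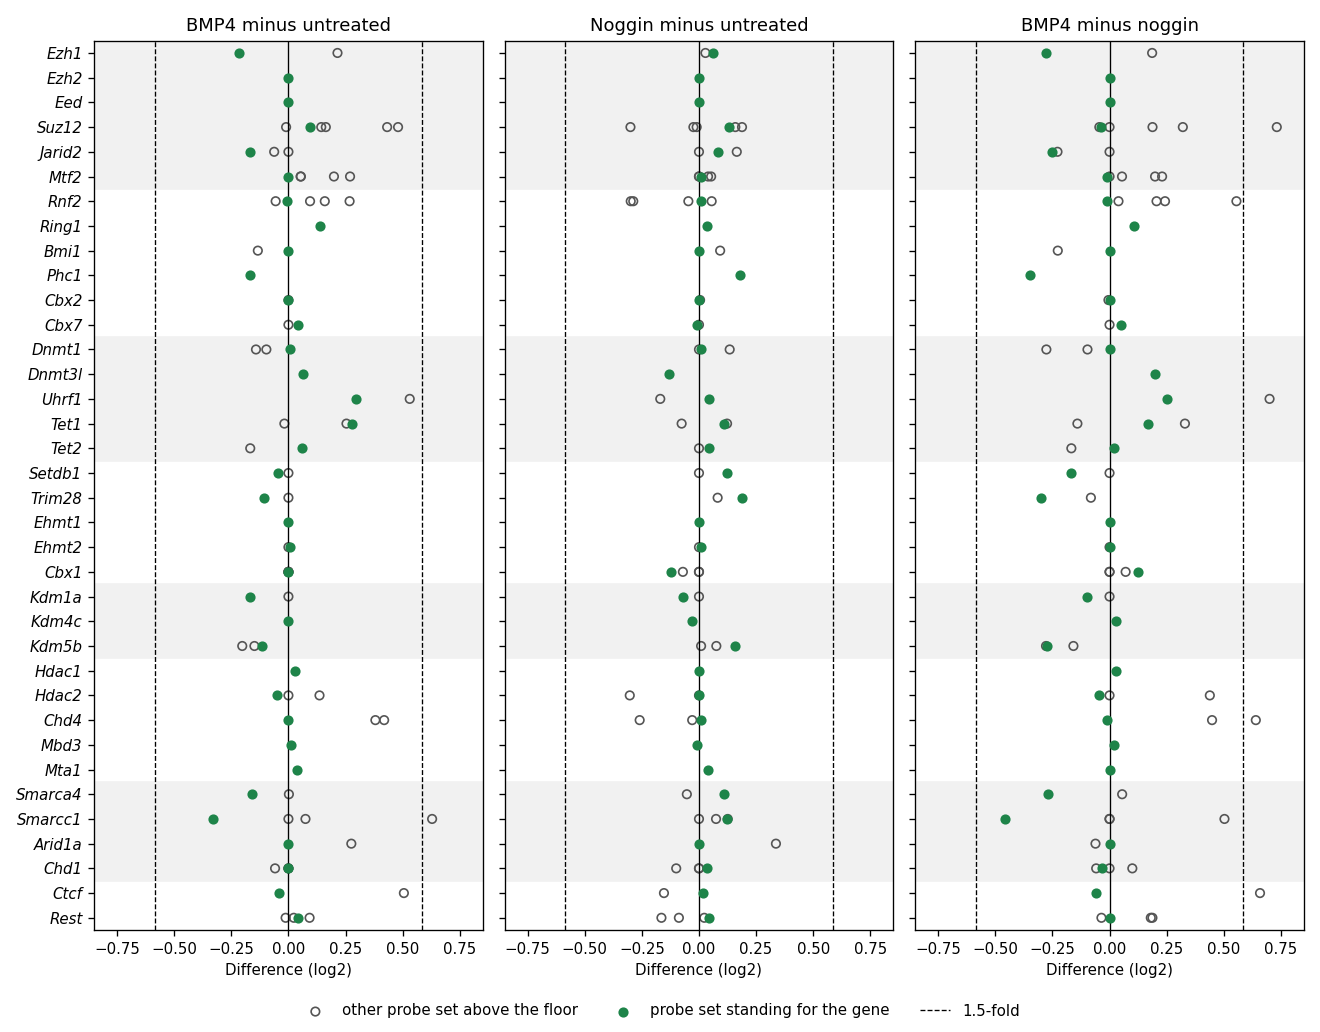
Differences (log2) of all 86 member probe sets above the floor for the 3 comparisons, 1 array against 1 array; filled points are the representative probe sets, open points the others, and dashed lines mark 1.5-fold. Filled points stay inside the dashed lines throughout, while open points of Suz12, Uhrf1, Chd4 and Ctcf pass them for BMP4 minus noggin and that of Smarcc1 for BMP4 minus untreated.

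Among the PRC2 genes, the probe set of the catalytic subunit Ezh2 measured 9.18 on all 3 arrays. Eed, which reads trimethylated lysine 27 and stimulates the enzyme, measured 10.84 on all of them. Its second probe set was below the floor everywhere, at 2.13, 2.26 and 1.70. Ezh1, the alternative catalytic subunit, measured 6.49 untreated, 6.27 with BMP4 and 6.55 with noggin. A second probe set of Ezh1 went the other way with BMP4, from 5.46 untreated to 5.68, with 5.49 under noggin, so that the direction for BMP4 is not settled by these probes.

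Suz12, the scaffold of PRC2, had 6 probe sets above the floor, and 5 of them were higher with BMP4 than untreated. Its representative measured 10.15 untreated, 10.24 with BMP4 and 10.28 with noggin, differences of 0.10 and 0.13. Another measured 9.61, 10.09 and 9.77, and a further one 7.04, 7.47 and 6.74. The last was 1.66-fold higher with BMP4 than with noggin, whereas the representative differed by −0.04 between the same arrays. Suz12 was thus higher with BMP4 on most of its probe sets, by 0.10 to 0.48, with 1 at −0.01. With noggin the 6 ranged from −0.30 to 0.19.

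The accessory subunits gave small differences. Jarid2, which helps PRC2 to its target sites, measured 10.60 untreated, 10.44 with BMP4 and 10.69 with noggin, and a further probe set measured 9.34, 9.28 and 9.51, while another was equal at 10.32. Mtf2, a Polycomb-like protein that binds unmethylated CpG-rich DNA, was equal on the untreated and BMP4 arrays at 11.08 and measured 11.09 with noggin. Its other 4 probe sets above the floor were higher with BMP4 by 0.05 to 0.27. In all, 10 of the 18 PRC2 probe sets were higher with BMP4 and 4 lower, and 10 were higher and 3 lower with noggin. Of all 86 member probe sets 37 were higher and 24 lower with BMP4, and 40 were higher and 23 lower with noggin. The matching shares over all probe sets of the array were not counted, so these group counts show no leaning particular to a group.

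Of the PRC1 genes, Rnf2, the main ubiquitin ligase subunit, measured 9.71, 9.70 and 9.72 on the untreated, BMP4 and noggin arrays. Other Rnf2 probe sets differed more, and the one nearest the floor measured 4.02, 4.29 and 3.73. Ring1, the paralogous ligase subunit, had a single probe set, at 5.13, 5.27 and 5.17. Bmi1, a ring-finger partner of the ligase, was equal at 7.12, and its second probe set measured 5.43, 5.29 and 5.52.

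Phc1, a Polyhomeotic subunit involved in clustering of PRC1, had 1 probe set, which measured 10.11 untreated, 9.94 with BMP4 and 10.29 with noggin. It was lowest with BMP4 and highest with noggin, and the 1.27-fold gap between them was among the widest of the representatives, but no second probe set was there to compare. The chromobox proteins, which bind methylated lysine 27, differed hardly at all. Cbx2 was equal at 7.19 on the 3 arrays, and Cbx7, the chromobox protein most associated with self-renewing ES cells, measured 7.47, 7.51 and 7.46. Over the 13 PRC1 probe sets above the floor, 5 were higher and 4 lower with BMP4, and 6 were higher and 4 lower with noggin. Shares over all probe sets were not counted here either.

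The DNA methylation genes were the only one of the 8 groups in which all representatives were higher with BMP4, 5 of 5, with a median difference of 0.07. Of all genes 24.8% were higher with BMP4. Across the 11 probe sets of the group 7 were higher and 4 lower, with no share over all probe sets counted. With the mean over probe sets 3 of the 5 genes were higher, so the agreement holds for the representatives and not for every probe set. On that mean other groups were uniform instead: all 5 NuRD genes, and Ctcf and Rest, were higher with BMP4, against 36.2% of all genes. Of 7 further DNA methylation genes that are not members, 2 were higher with BMP4 and 4 lower on their representatives.

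Uhrf1, which recognises hemimethylated CpG and brings Dnmt1 to it, measured 9.15 untreated, 9.45 with BMP4 and 9.19 with noggin. A second probe set measured 7.38, 7.91 and 7.21. Both were highest on the BMP4 array, 1.23-fold and 1.44-fold above the untreated array and 1.19-fold and 1.62-fold above the noggin array. Against untreated cells, noggin gave 0.04 on the first and −0.17 on the second. Uhrf1 was the sole member with several probe sets above the floor that had all of them higher with BMP4 (1 of 26, 3.85%, against 7.78% of such genes overall), so the agreement of its probe sets is not unusual for the array.

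Tet1, the main 5-methylcytosine oxidase of ES cells, measured 9.56, 9.84 and 9.67 on its representative. Another probe set gave 9.33, 9.31 and 9.45, and one more 6.48, 6.74 and 6.41. With BMP4 the differences were 0.28, −0.02 and 0.25 in that order. Tet2 measured 7.43, 7.49 and 7.47, and its second probe set 6.72, 6.55 and 6.72. Dnmt1, the maintenance methyltransferase, measured 9.02, 9.03 and 9.03, a difference of 0.0066 with either treatment, while its other probe sets differed by −0.14 and −0.10 with BMP4. Dnmt3l, a catalytically inactive partner of the de novo methyltransferases, had 1 probe set, at 10.50, 10.57 and 10.37. Its difference with noggin was −0.13, the lowest value of any representative in that comparison.

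A feature that the choice of members did not use is the CpG content of their promoters. In the RefSeq promoter table (GRCm38.p6) 32 of the 36 members were matched by symbol, and the 250 bases before the most upstream annotated start were read. The ratio of observed to expected CpG had a median of 0.791 over the members, from 0 for Kdm4c to 1.19 for Tet2, and 0.379 over all 27025 genes of the table. It exceeded 0.6, a usual limit for CpG-rich DNA, in 28 members (87.5%) and in 34.5% of all genes. When the richest annotated start of each gene was taken, 31 members (96.9%) and 36.5% of all genes exceeded it, and Dnmt3l, at 0.272, was the member that did not. The table was not limited to genes measured on these arrays, and the ratio says nothing of whether the CpGs are methylated.

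The upstream windows of Uhrf1 and Kdm5b are shown, because, of the 26 members with several probe sets above the floor, these were the ones whose probe sets all lay on one side with BMP4, higher for Uhrf1 and lower for Kdm5b. Both are 250 bases on the plus strand, chr17:56303087-56303336 for Uhrf1 and chr1:134559928-134560177 for Kdm5b, printed 5′ to 3′ with each CpG in capitals.
Uhrf1: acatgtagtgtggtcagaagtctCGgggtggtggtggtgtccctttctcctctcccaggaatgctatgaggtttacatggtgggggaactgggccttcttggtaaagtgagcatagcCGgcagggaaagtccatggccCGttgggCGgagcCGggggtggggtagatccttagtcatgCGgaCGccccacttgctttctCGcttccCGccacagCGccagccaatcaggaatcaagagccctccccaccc
Kdm5b: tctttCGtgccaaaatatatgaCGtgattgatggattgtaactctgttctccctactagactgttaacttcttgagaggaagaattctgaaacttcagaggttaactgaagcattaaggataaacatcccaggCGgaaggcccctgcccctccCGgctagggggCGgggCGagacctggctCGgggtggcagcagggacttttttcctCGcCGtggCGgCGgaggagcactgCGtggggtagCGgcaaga
The window of Uhrf1 holds 10 CpGs and a ratio of 0.453, and that of its other annotated start exceeds 0.6. Kdm5b has 1 annotated start, with 13 CpGs and a ratio of 0.718. No motif was searched in either window.

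The genes of the histone H3 lysine 9 pathway were nearly level with BMP4. Setdb1, a lysine 9 methyltransferase that silences retroviral elements, measured 8.23 untreated, 8.18 with BMP4 and 8.35 with noggin. Trim28, the corepressor that recruits Setdb1, measured 11.83, 11.72 and 12.02, and its second probe set 11.70, 11.70 and 11.78. Both Trim28 probe sets were higher with noggin than untreated, by 0.19 and 0.08, and BMP4 minus noggin was −0.30 and −0.08. Ehmt1 was equal at 8.39 on all arrays, and its partner Ehmt2, with which it forms the lysine 9 dimethylating enzyme, measured 8.49, 8.50 and 8.50. Cbx1, a heterochromatin protein that binds methylated lysine 9, was equal at 9.52 untreated and with BMP4 and measured 9.40 with noggin, and a second probe set differed by −0.07 with noggin. Of the 11 probe sets of this group 8 were exactly equal between the BMP4 and untreated arrays, and 4 of these were of Cbx1. Of all 86 member probe sets 25 were exactly equal in that comparison. The share over all probe sets was not counted there. By gene, 39.6% of all genes were equal on their representatives and 24.4% with the mean over probe sets, so the share depends on the unit. Equal values arise in the median polish, so they are weak evidence of a level gene.

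Of the 3 demethylase genes 2 were lower with BMP4 and 1 was equal, where 35.6% of all genes were lower and 39.6% equal. Among 11 further demethylase genes that are not members, 5 were higher and 5 lower. Kdm5b, which removes methyl groups from histone H3 lysine 4, measured 9.62 untreated, 9.50 with BMP4 and 9.78 with noggin. Its second probe set measured 6.97, 6.76 and 7.04, and the remaining one 4.43, 4.28 and 4.44. All 3 were lowest on the BMP4 array and highest on the noggin array, and BMP4 minus noggin was −0.27, −0.28 and −0.16. Kdm5b was the sole member whose probe sets above the floor were all lower with BMP4 than untreated (1 of 26, 3.85%, against 7.39% of such genes overall), and it shared with Trim28 and Ezh1 that all of them were higher with noggin (3 of 26, 11.5%, against 6.05%). One more probe set, below the floor, was equal with BMP4 and lower with noggin.

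Kdm1a, the lysine demethylase of the CoREST and NuRD complexes, measured 10.43, 10.26 and 10.36, while its second probe set was equal at 9.24. Kdm4c, which acts on trimethylated lysine 9, measured 6.88, 6.88 and 6.86 on its 1 probe set.

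In the NuRD complex the representatives differed by at most 0.05 in any comparison. Hdac1, a histone deacetylase, measured 9.56 untreated, 9.59 with BMP4 and 9.56 with noggin, and its paralogue Hdac2 9.44, 9.39 and 9.44. Mbd3, the methyl-CpG-binding-domain protein that holds NuRD together, measured 8.28, 8.29 and 8.27, and Mta1, a scaffold of the deacetylase module, 7.03, 7.07 and 7.07. The other probe sets were less even. A second Hdac2 probe set measured 8.53, 8.66 and 8.22, a difference of −0.30 with noggin that the representative did not share, at 0.00. With the mean over probe sets all 5 NuRD genes were higher with BMP4 than untreated, against 36.2% of all genes. With noggin 4 were lower and 1 equal on that basis, and 51.6% of all genes were lower. BMP4 minus noggin was above 0 for all 5, with a median of 0.13, and for 49.6% of all genes. For Mta1 that mean takes in a probe set below the floor.

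Chd4, the ATPase of NuRD, measured 7.67, 7.67 and 7.68 on its representative. The other pair of probe sets measured 6.11, 6.53 and 6.08, and 5.57, 5.95 and 5.31. Both were higher with BMP4 than untreated, by 0.42 and 0.38, and the last was 1.56-fold higher with BMP4 than with noggin. The statement that Chd4 was level rests on 1 of its 3 probe sets, and the other pair differed from it by more than the within-gene standard deviation of 0.17 that members had for BMP4 minus untreated.

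Of the SWI/SNF genes, Smarca4, the Brg1 ATPase of the ES cell complex, measured 8.72 untreated, 8.56 with BMP4 and 8.83 with noggin, and its second probe set 7.59, 7.59 and 7.53. Arid1a, the subunit that defines the canonical complex, was equal at 9.16 on the 3 arrays. Its second probe set measured 7.95, 8.23 and 8.29, the largest difference above 0 of any member probe set with noggin, 0.34. Chd1, a separate remodeller that binds methylated lysine 4 of histone H3, measured 7.12, 7.12 and 7.15, and its other probe sets stayed within 0.10.

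Smarcc1, the BAF155 core subunit, had the widest disagreement. Its representative measured 8.95 untreated, 8.61 with BMP4 and 9.07 with noggin, a 1.26-fold lower value with BMP4. Another probe set measured 6.58, 7.20 and 6.70, a 1.55-fold higher value with BMP4. The remaining ones measured 7.72, 7.80 and 7.80, and 3.55 on every array. With BMP4 the probe sets of Smarcc1 thus spanned −0.33 to 0.63, and it was the 1 member of 26 (3.85%) whose probe sets lay at least 1.5-fold apart in that comparison, against 2.1% of the 5139 genes with several probe sets above the floor. Their mean differed by 0.09 with BMP4, so no direction can be given for Smarcc1.

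Ctcf, the insulator protein that anchors chromatin loops, measured 8.89 untreated, 8.85 with BMP4 and 8.91 with noggin. Its second probe set measured 8.18, 8.69 and 8.03 and was 1.42-fold higher with BMP4 than untreated and 1.58-fold higher than with noggin. Rest, the repressor of neuronal genes, measured 9.76, 9.80 and 9.80, and a second probe set 9.23, 9.21 and 9.25. The remaining Rest probe sets lay between −0.16 and 0.09 of the untreated array.

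**Figure D4:**
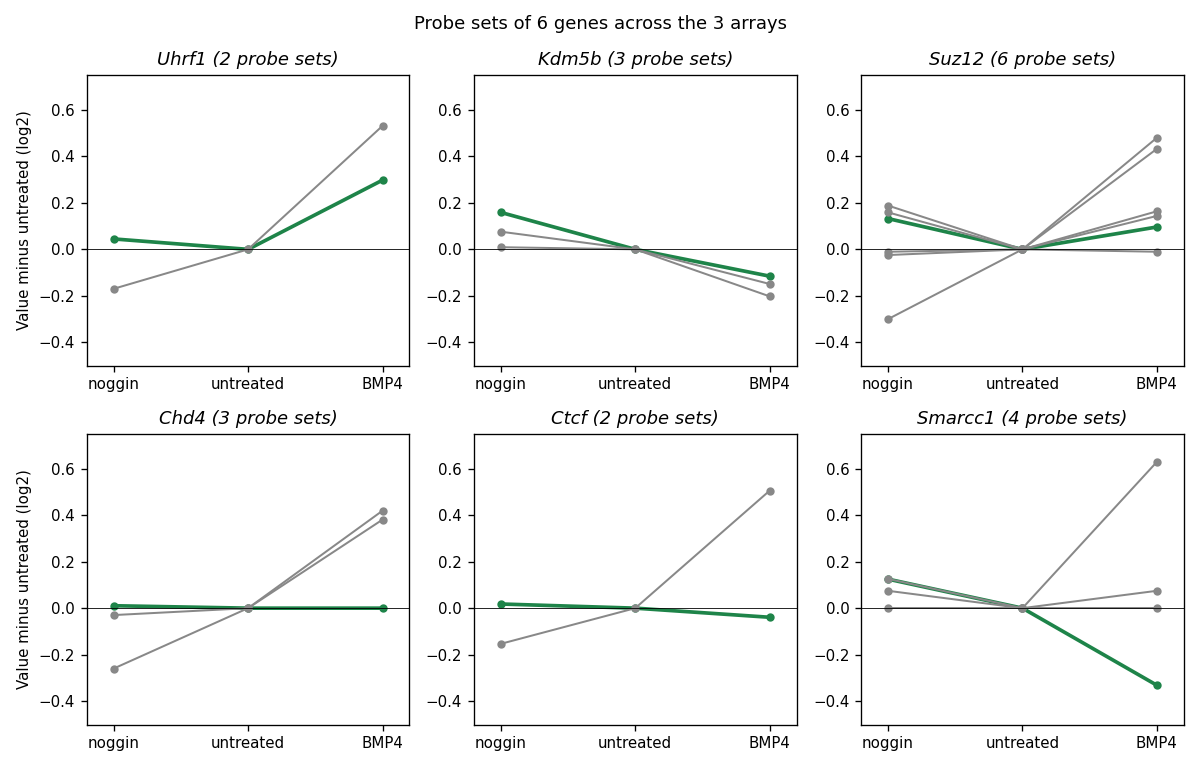
Value of each probe set above the floor minus its untreated value (log2) on the noggin, untreated and BMP4 arrays, 1 array each, for 6 genes; each line is a probe set and the thick green line the representative. Uhrf1 and Kdm5b keep 1 side with BMP4 on all their probe sets, while the lines of Smarcc1 spread from −0.33 to 0.63 and those of Chd4 and Ctcf part from a level representative.

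Probe sets of one gene disagreed in sign for 11 of the 26 members with several above the floor for BMP4 against untreated (42.3%, against 28.3% of such genes), for 9 for noggin against untreated (34.6%, against 26.4%) and for 13 for BMP4 against noggin (50%, against 30.5%). In the last comparison 4 members, Suz12, Chd4, Ctcf and Smarcc1, had probe sets at least 1.5-fold apart (15.4%, against 4.38%). The within-gene standard deviation was 0.17 for members and 0.13 for all genes with BMP4, 0.11 for both with noggin, and 0.22 against 0.16 between BMP4 and noggin. In the last comparison the mean of the other probe sets lay above the representative for 17 members (65.4%), and for 59.2% of all such genes.

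Further subunits of the same complexes were described from a list of 88 genes that are not members, of which 83 had a probe set of their own and 81 were above the floor. None passed 1.5-fold in any comparison on its representative. With BMP4 26 of the 81 were higher and 33 lower, and of all genes 24.8% were higher and 35.6% lower. With noggin 36 were higher and 18 lower, and of all genes 26.8% were higher and 36.1% lower. Nipbl, which loads cohesin, differed most with BMP4, at 7.95 untreated and 8.45 with BMP4, but its other probe sets went down to −0.35. Epop, an accessory subunit of PRC2, measured 9.54 untreated, 9.89 with BMP4 and 9.67 with noggin on its 1 probe set. Of the other PRC2 genes Aebp2 and Rbbp7, at −0.0050 and −0.0044 with BMP4, were the 2 that were lower.

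In the other lists the ends were as follows. Among 13 further PRC1 genes the differences with BMP4 ran from L3mbtl2 at −0.12 to Pcgf6 at 0.16, and with noggin from Yaf2 at −0.12 to Pcgf2 at 0.14. The de novo methyltransferase gene Dnmt3a was the lowest of 7 further DNA methylation genes with BMP4, at −0.17, and the imprint-protecting zinc finger gene Zfp57 the highest, at 0.04; with noggin Mbd4, a thymine glycosylase, was at −0.17. That group had 2 genes higher and 4 lower with BMP4. Of the lysine 9 and heterochromatin genes Atf7ip, a cofactor of Setdb1, was at −0.15 with BMP4 and 0.19 with noggin, and Cbx3 was at 0.11 and 0.00. Cbx3 had 1 probe set above the floor, and it lay near the floor, at 3.65 untreated, 3.76 with BMP4 and 3.65 with noggin.

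Kdm6b, a demethylase of lysine 27, measured 7.49 untreated, 7.39 with BMP4 and 7.82 with noggin, and its difference of 0.34 was the highest of 11 further demethylase genes with noggin, although another Kdm6b probe set was at −0.05. Kdm5a was the lowest with noggin, at −0.03, and 1 of its probe sets was higher with BMP4 by 0.61. With BMP4 these ran from Kdm3b at −0.19 to Kdm6a at 0.16. The NuRD genes ran from Sall4 at −0.09 to Gatad2b at 0.19 with BMP4, and from Mta3 at −0.0043 to Mta2 at 0.17 with noggin. For SWI/SNF the ends were Phf10 at −0.20 and Smarcc2 at 0.20 with BMP4, and Actl6a at −0.12 and Smarcc2 at 0.34 with noggin. The cohesin gene Smc3 was at −0.12 with BMP4 and 0.17 with noggin. The genes of the lysine 4 methyltransferases are a group with no member. Of these 11 genes 2 were higher and 5 lower with BMP4, from Kmt2a at −0.14 to Setd1a at 0.13. With noggin 6 were higher and 2 lower, from Kmt2d at −0.09 to Setd1a at 0.26. Of all genes 24.8% were higher and 35.6% lower with BMP4, and 26.8% were higher and 36.1% lower with noggin.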

How the data were processed

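Total RNA was labelled with biotin and hybridised to 1 array per condition. The values the authors deposited are on a log2 scale, 1 per probe set and array, and come from RMA, per the submitters' processing notes. RMA corrects background, quantile-normalizes arrays and summarises probes by median polish. The RMA settings and the build are not given in the sources used here. A shift in total RNA would be hidden by the quantile step. Values were used as deposited, with pandas 2.3.3 in Python 3.11.15.

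Of 45101 probe sets, 34945 were paired with 1 gene, 932 with several, 9160 with none, and 64 were controls. The brightest probe set by mean value stood for a gene, which was kept if its highest value exceeded 3.44, the median of all values. Differences were counted at 1.5-fold, and also at 1.2-fold. All members were named, and of the other list genes the highest and lowest of each list against untreated and any past 1.5-fold. Alternatives were 2 other floors, the mean over probe sets (those below the floor included), centred or loess-corrected differences (span 0.3, statsmodels 0.14.6), plain-suffix probe sets, other size limits and probe sets as units. The members and lists were chosen with earlier results of these data known. The counting was checked by adding known differences to copies of the untreated values. All probe sets of a chosen gene were shifted alike, so this does not test the choice of probe set.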

Additional observations from a re-analysis of the deposited data

How the results depend on the processing

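No member passed 1.5-fold in any comparison under either other floor, under centring, loess correction, the mean over probe sets or plain-suffix probe sets, or at a limit of 2-fold. At 1.2-fold the counts were 3 for BMP4 minus untreated and 6 for BMP4 minus noggin, and with probe sets as units 1 and 4 passed 1.5-fold. Loess correction, which shifts exact zeros, gave 23 members higher with BMP4. With the mean over probe sets, 5 members were equal with BMP4 against untreated. On that basis 16 were lower and 3 equal with noggin against untreated, and 19 were higher and 3 equal for BMP4 minus noggin. With plain-suffix probe sets, which left 32 members, 10 were lower for BMP4 minus noggin. Differences of single members changed sign under the mean over probe sets for 7, 8 and 10 genes in the order BMP4 minus untreated, noggin minus untreated and BMP4 minus noggin. The cause was not tested beyond the change of probe sets. No paired analysis was possible because each condition has 1 array. With 1 array per condition, array signal over background sets what can be seen, and biological and technical variation cannot be told apart.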
